A study of Caenorhabditis elegans with 2 samples.

Results

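Binding of NHR-6 at 10 genes of junctions and contractility was read from chromatin immunoprecipitation and sequencing (ChIP-seq) in the worm Caenorhabditis elegans, using entire animals at the second larval stage (L2). The genes were ajm-1, dlg-1, let-502, mel-11, fln-1, plc-1, itr-1, lfe-2, ipp-5 and fkh-6, taken from 19973 protein-coding genes of the nuclear chromosomes. They were chosen because nhr-6 is needed for development of the spermatheca, with earlier results of these data known, and the rule itself uses no peak value. Both samples came from strain OP90, genotype unc-119(ed3) III; wgIs90, whose integrated transgene expresses NHR-6 fused to eGFP. Both carry the same alleles, so the data hold 1 group of 2 biological replicates with the sexes pooled. Neither an input nor an untagged control was analysed here, and read depth is unknown from peak lists. The optimal set, the peaks that passed the authors' reproducibility filter, held 1662 peaks, which were the 1662 highest of the pooled list. The relaxed lists of the pooled data, replicate 1 and replicate 2 held 30000 peaks each, weak candidates included. Of these, 2786 pooled, 3180 replicate 1 and 2487 replicate 2 peaks had a q-value of 0.01 or less. The authors' signal per peak is not compared between lists, and a peak's rank by signal within its own list is given for that purpose.

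NHR-6 belongs to the NR4A nuclear receptors, a group of transcription factors that can bind DNA as single molecules. The spermatheca is the contractile tube of the hermaphrodite gonad in which oocytes are fertilised. Its walls are a single layer of epithelial cells held by apical junctions, and actin and myosin bundles let them squeeze. Contraction there is set by how active myosin is, and by calcium that inositol trisphosphate (IP3) releases from internal stores. The spermatheca forms in later larval stages, so whole L2 animals hold gonad precursors and not the finished organ. Most of these genes also act in other tissues. In whole animals, strong binding in few cells and weak binding in many cannot be told apart.

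The optimal set held 3 summits in these genes, and their surroundings are printed first because the account of ajm-1 and fln-1 rests on them. Each sequence covers 70 bp on either side of the summit base, read from the plus strand of RefSeq's WBcel235 (ce11). In the first, the ajm-1 summit at chrX:9085953-9086093, capitals mark the bases of the small non-coding RNA gene H08J11.4. In the second, the ajm-1 summit at chrX:9091491-9091631, capitals mark the glutamine tRNA gene H08J11.t3. The third, the fln-1 summit at chrIV:366517-366657, holds no annotated gene, and nothing is in capitals. A shorter stretch of the itr-1 promoter at chrIV:7674796-7674856 follows, with its NR4A element in capitals, read on the plus strand as the reverse complement of AAAGGTCA.
ajm-1 ncRNA summit: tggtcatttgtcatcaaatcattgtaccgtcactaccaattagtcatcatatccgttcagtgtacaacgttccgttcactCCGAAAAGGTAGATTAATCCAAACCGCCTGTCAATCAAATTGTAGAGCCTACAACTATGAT
ajm-1 tRNA summit: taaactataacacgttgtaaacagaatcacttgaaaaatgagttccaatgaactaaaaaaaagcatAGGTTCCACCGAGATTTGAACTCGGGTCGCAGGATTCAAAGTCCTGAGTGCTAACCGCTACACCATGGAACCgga
fln-1 intron summit: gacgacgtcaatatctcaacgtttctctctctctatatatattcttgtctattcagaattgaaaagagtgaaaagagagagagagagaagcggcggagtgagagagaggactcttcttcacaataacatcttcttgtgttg
itr-1 promoter element: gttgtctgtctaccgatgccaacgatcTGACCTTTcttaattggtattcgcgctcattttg

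Among the junction genes, ajm-1 carried the strongest peaks of the 10 genes in all lists, and both of its optimal summits lay in or beside non-coding RNA genes nested in its introns. The gene encodes AJM-1, a coiled-coil protein of the apical junction. It lies on the plus strand of X, 9082946 to 9113619, and has 14 annotated 5′ ends of coding transcripts, a number that 10 protein-coding genes reach or exceed, itself counted. The promoter window used for every gene ran from 1000 bp upstream to 200 bp downstream of each such 5′ end, and ajm-1's windows together covered 11188 bp. The highest summit was at 9091561, with a pooled signal of 88.4 and pooled rank 622. In replicate 1 the summit at 9091565 had a signal of 65.9 and rank 649, and in replicate 2 the summit at 9091616 had 22.6 and rank 820. The peak was thus among the highest 1662 in all 3 lists, and −log10 of the q-value was 3.40 pooled, 3.46 in replicate 1 and 3.45 in replicate 2.

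This summit counted as a promoter summit through an internal 5′ end 724 bp downstream of it, and it lay 8615 bp downstream of the outermost 5′ end. It was in no other protein-coding gene's window. Its position is inside an intron of ajm-1 and inside the glutamine tRNA gene H08J11.t3, 72 bp long, on the minus strand at 9091557 to 9091628. The 5′ end of that tRNA gene was 67 bp from the pooled summit, 63 bp from the replicate 1 summit and 12 bp from the replicate 2 summit. The same intron holds 5 glutamine tRNA genes, H08J11.t1 to H08J11.t5. H08J11.t4 and H08J11.t5 equal H08J11.t3 at 72 of 72 bases, H08J11.t2 at 71 and H08J11.t1 at 70. Counting itself, the H08J11.t3 sequence occurs 16 times in the genome. Of the 5 genes, H08J11.t3 alone had an optimal summit. The nearest relaxed summits at the others were a pooled one of rank 11629 at H08J11.t1 and one of rank 9141 in replicate 1, 37 bp from H08J11.t5. H08J11.t2 and H08J11.t4 had no summit within 100 bp in the pooled or either replicate's list. The sources used here do not state how reads that match several copies were treated, and their part in this peak was not tested. A tRNA gene lay within 100 bp of 39 of the 1662 optimal summits (2.35%), and on X of 32 of 370 (8.65%).

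The second optimal summit of ajm-1 was intronic, at 9086023, 3077 bp downstream of the outermost 5′ end and 3040 bp from the nearest. Its pooled signal was 73.5 (rank 903), with 52.3 in replicate 1 (rank 1046) and 23.6 in replicate 2 (rank 754). It therefore stood among the highest 1662 in every list. The non-coding gene H08J11.4, on the minus strand at 9086033 to 9086223, had its nearer end 10 bp from the summit. Genes annotated as ncRNA, the class of H08J11.4, lay within 100 bp of 204 optimal summits (12.3%), and on X of 58 of 370 (15.7%). ajm-1 itself holds 20 nested non-coding genes, 15 of them ncRNA and 5 tRNA.

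Weaker summits were spread along the rest of ajm-1. With the peaks at its optimal summits counted in, the relaxed lists gave it 4 promoter and 10 intron summits pooled. The counts were 5 and 8 in replicate 1 and 5 and 9 in replicate 2. The clearest weaker summit at an internal 5′ end, 171 bp downstream of it, was at 9095316, with a pooled signal of 36.8 (rank 3187, −log10 q 1.66). Replicate 1 had 24.8 there (rank 4448) and replicate 2 had 9.14 (rank 9666). It ranked below 1662 in all 3 lists. A further promoter summit at 9099548, 703 bp upstream of its 5′ end, ranked 6697 pooled and reached rank 2762 in replicate 2 with a signal of 14.0. In replicate 1 it was near the bottom of the list, at rank 29747 with a signal of 11.2.

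**Figure D1:**
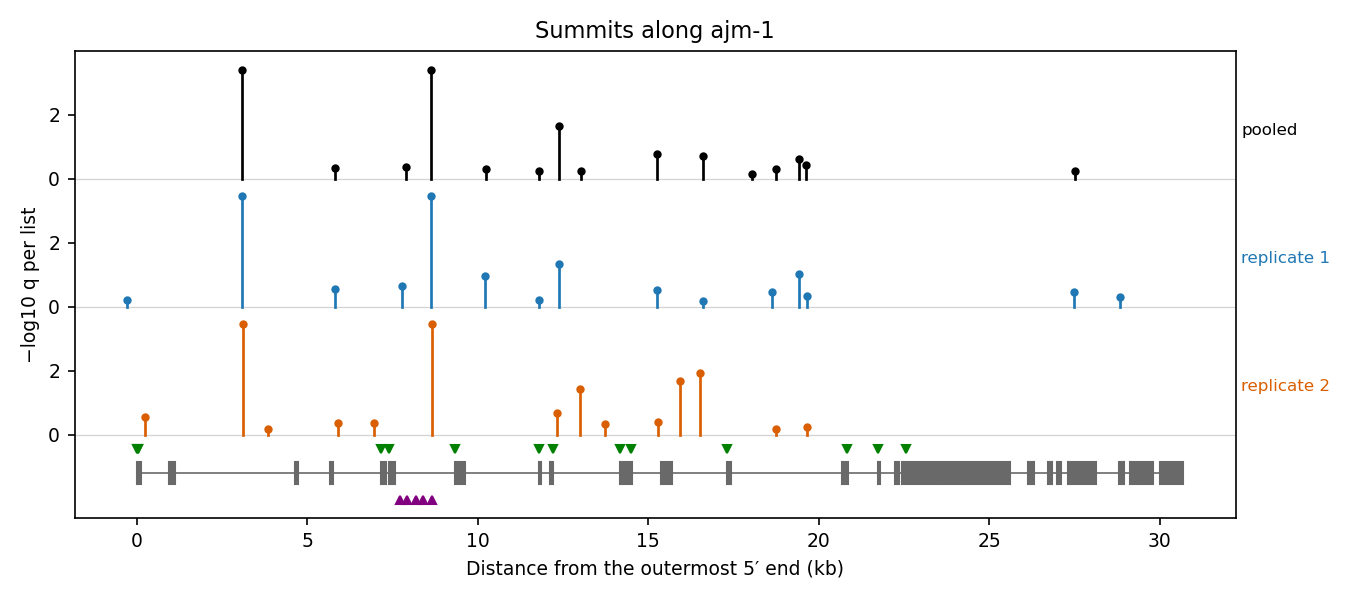
Summits along ajm-1 by distance from its outermost 5′ end (kb), with −log10 of the authors' q-value on the vertical axis, in 1 track each for the pooled, replicate 1 and replicate 2 lists. Grey marks exons, green triangles 5′ ends and purple triangles nested tRNA genes, and the summits 3077 bp and 8615 bp from the outermost 5′ end stand above all others in the pooled track.

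The junction partner dlg-1 had weak peaks only. It encodes the Discs large scaffold protein, which binds AJM-1, and lies on X at 5479700 to 5484941 with 1 annotated 5′ end. Its promoter summit 457 bp upstream had a pooled signal of 24.2 (rank 8571). Replicate 1 had 23.6 there (rank 4989) and a second summit 182 bp upstream with 16.4 (rank 12879). Replicate 2 had its promoter summit elsewhere, 60 bp downstream of the 5′ end, with a signal of 5.68 (rank 26935). The replicates thus did not share a promoter summit. The highest peak of dlg-1 in the pooled list was inside a coding exon, at 5482976, with 34.4 pooled (rank 3720), 24.9 in replicate 1 (rank 4393) and 8.95 in replicate 2 (rank 10280).

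The genes that regulate myosin had no pooled summit in promoter windows or introns. let-502 encodes a protein kinase that raises myosin activity, and its promoter window held no summit in the optimal, pooled, replicate 1 or replicate 2 list. Its intron summits appeared in replicate 2 alone, at ranks 23014 and 29062, and its 1 pooled summit, in a coding exon, had rank 27688. A replicate 2 summit in an untranslated exon, rank 18200, also lies in the promoter window of the neighbouring gene mlst-8. mel-11 encodes the regulatory subunit of myosin phosphatase, which opposes the kinase. It had 1 promoter summit, in replicate 2, 44 bp upstream of a 5′ end with a signal of 5.55 (rank 27960). Its better peaks lay outside the windows. A summit 1682 bp upstream had 17.2 pooled (rank 20290) and 13.4 in replicate 2 (rank 3132), with none in replicate 1. Another in a coding exon at 9360849 had 26.1 pooled (rank 7032) and 21.3 in replicate 1 (rank 6539), with none in replicate 2.

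fln-1 held the third optimal summit of the group, and it sat at the edge of that set. The gene encodes filamin, which cross-links actin and is needed for the spermatheca to contract, and it lies on the minus strand of IV at 359223 to 376015. The summit at 366587 is intronic, 2765 bp upstream of the nearest of 4 annotated 5′ ends and 9428 bp downstream of the outermost. Its pooled signal was 52.9, rank 1643, where the lowest optimal peak had 52.56 and the highest peak outside had 52.55. Replicate 1 had 38.2 at 366554 (rank 1824, −log10 q 2.86) and replicate 2 had 15.3 at 366601 (rank 2111, −log10 q 2.19). Both replicates gave a peak there, and in neither was it among the highest 1662. No non-coding gene lay nearer than 6934 bp, unlike the ajm-1 summits. The printed sequence holds the run GAGAGAGA within 50 bp of the summit, a motif looked for on both strands after the sequence had been seen. That motif stood in 161 of 1662 optimal windows (9.69%) and 688 of 30000 pooled windows (2.29%), and in neither ajm-1 window.

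Elsewhere in fln-1 peaks were weak. The promoter summit 155 bp upstream of the outermost 5′ end had 19.5 pooled (rank 15010) and 8.85 in replicate 2 (rank 10611), and replicate 1 had none. A coding exon summit at 362103 had 29.8 pooled (rank 5135) and 25.5 in replicate 1 (rank 4164). Pooled intron summits numbered 7 in 7.007 kb of intron outside the windows, or 0.999 per kb. Replicate 1 had 0.714 per kb and replicate 2 had 0.428 per kb there, against 0.255 and 0.318 per kb over all genes. The pooled density was 0.688 per kb in ajm-1, 0.235 per kb in plc-1 and 0.275 per kb over the introns of all protein-coding genes.

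The genes that make and bind IP3 had no optimal summit. plc-1 encodes phospholipase C-epsilon, which produces IP3, and spans 10794857 to 10838650 on the minus strand of X. Its promoter summit 352 bp upstream had 18.1 pooled (rank 17867). Replicate 2 had 7.51 (rank 15700) 188 bp upstream, and replicate 1 had none. The introns, 29739 bp outside the windows, held 7 pooled, 6 replicate 1 and 10 replicate 2 summits. The highest in replicate 2 reached a signal of 16.5 (rank 1763, −log10 q 2.43) at 10817079. The pooled summit there had 22.0 (rank 11004), and replicate 1 had no summit within 100 bp. The best intron rank of replicate 1 was 7869, at another position, so the replicates differ in where plc-1 is highest.

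itr-1 encodes the IP3 receptor, the channel that lets calcium out of the store, and lies on the plus strand of IV at 7675174 to 7696930. Its promoter summit 296 bp upstream of the outermost 5′ end had 20.9 pooled (rank 12557). Replicate 1 had 23.8 at 327 bp upstream (rank 4892, −log10 q 1.19), and replicate 2 had no summit in the promoter windows. A pooled summit 1234 bp upstream had 24.1 (rank 8639), and this one lies in the promoter window of the neighbouring gene C08G9.2. The best intron summit, at 7687981, had 23.3 pooled (rank 9434).

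The enzymes that remove IP3 were uneven. lfe-2 encodes IP3 3-kinase, and its promoter windows held a summit in replicate 1 only, with a signal of 13.3 (rank 21115), 166 bp upstream of an internal 5′ end. Just beyond the window, 1491 bp upstream, was a higher peak with 41.4 pooled (rank 2547, −log10 q 2.19). It had 26.0 in replicate 1 (rank 3983) and 16.1 in replicate 2 (rank 1845), and no protein-coding gene's window covers it. An intron summit of lfe-2 at 5033306 had 34.8 pooled (rank 3612) and 28.8 in replicate 1 (rank 3176, −log10 q 2.00), with no replicate 2 summit within 100 bp. ipp-5 encodes an inositol polyphosphate 5-phosphatase, and it lies on X at 6031469 to 6034515. Its promoter summit 759 bp upstream had 34.2 pooled (rank 3777). Replicate 1 had 20.6 (rank 7128) 803 bp upstream, and replicate 2 had 11.7 (rank 4621) 785 bp upstream. ipp-5 was thus the only gene of the 10 besides ajm-1 where both replicates had promoter summits within 100 bp. It had no intron summit in the optimal, pooled or either replicate's list, and a coding exon summit at 6032278 had 28.4 pooled (rank 5743) and 25.7 in replicate 1 (rank 4088).

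fkh-6, a forkhead transcription factor needed for gonad development, had its promoter summit in the pooled list alone, 413 bp upstream with a signal of 15.2 (rank 26715). An intron summit at 4381643 had 19.2 pooled (rank 15664) and 11.2 in replicate 2 (rank 5315). The intron summit of replicate 1, rank 21751, was at a different place.

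**Figure D2:**
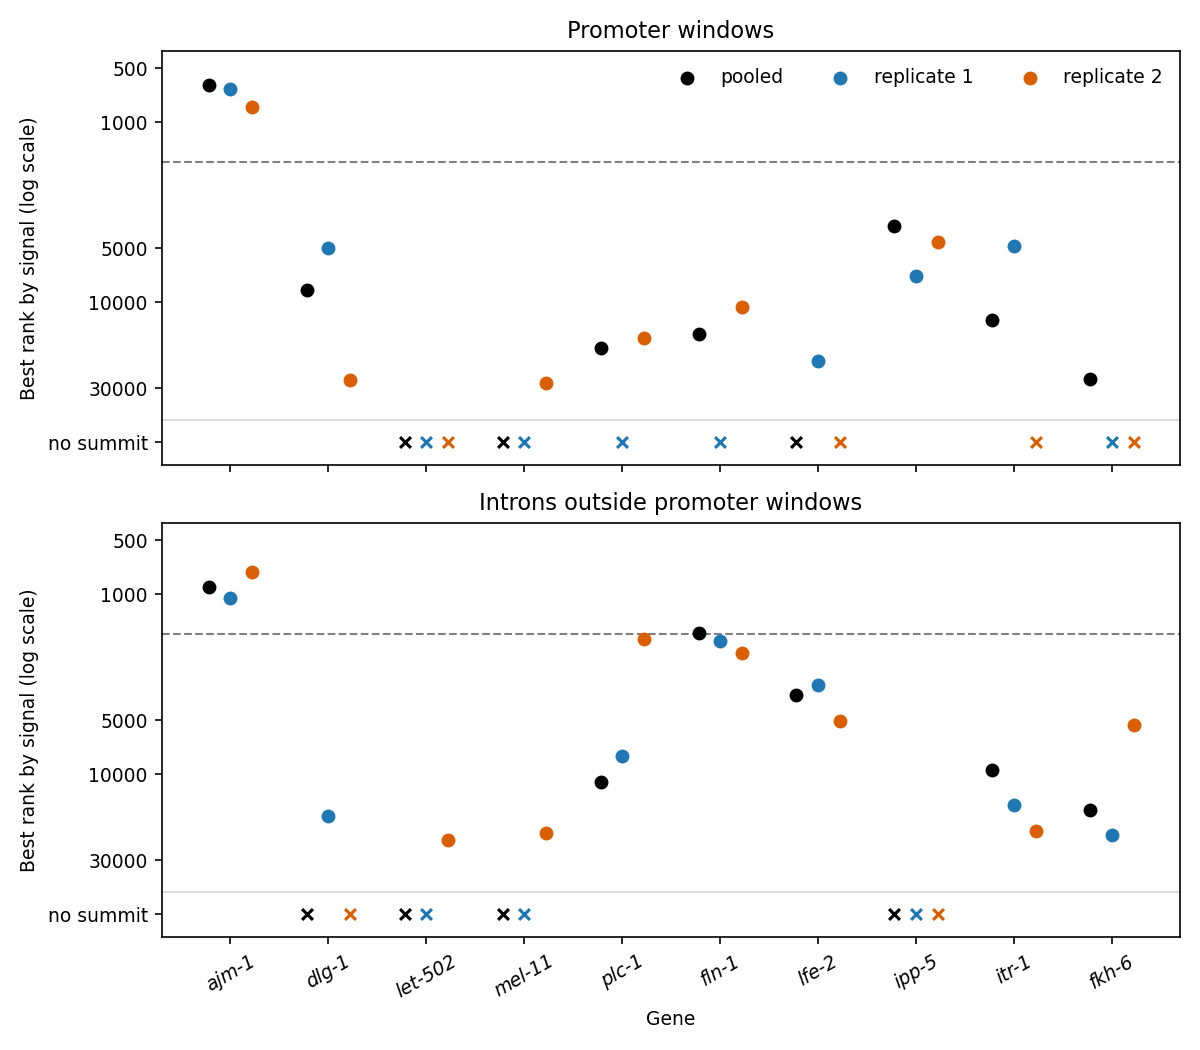
Best rank by signal of each gene in the pooled list (black), replicate 1 (blue) and replicate 2 (orange), on a log axis, in promoter windows (upper panel) and introns (lower panel), with crosses where a gene had no summit. The dashed line marks rank 1662, the size of the optimal set, which ajm-1 alone passes in promoter windows, and in introns it passes in all 3 lists, while fln-1 passes in the pooled list.

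**Figure D3:**
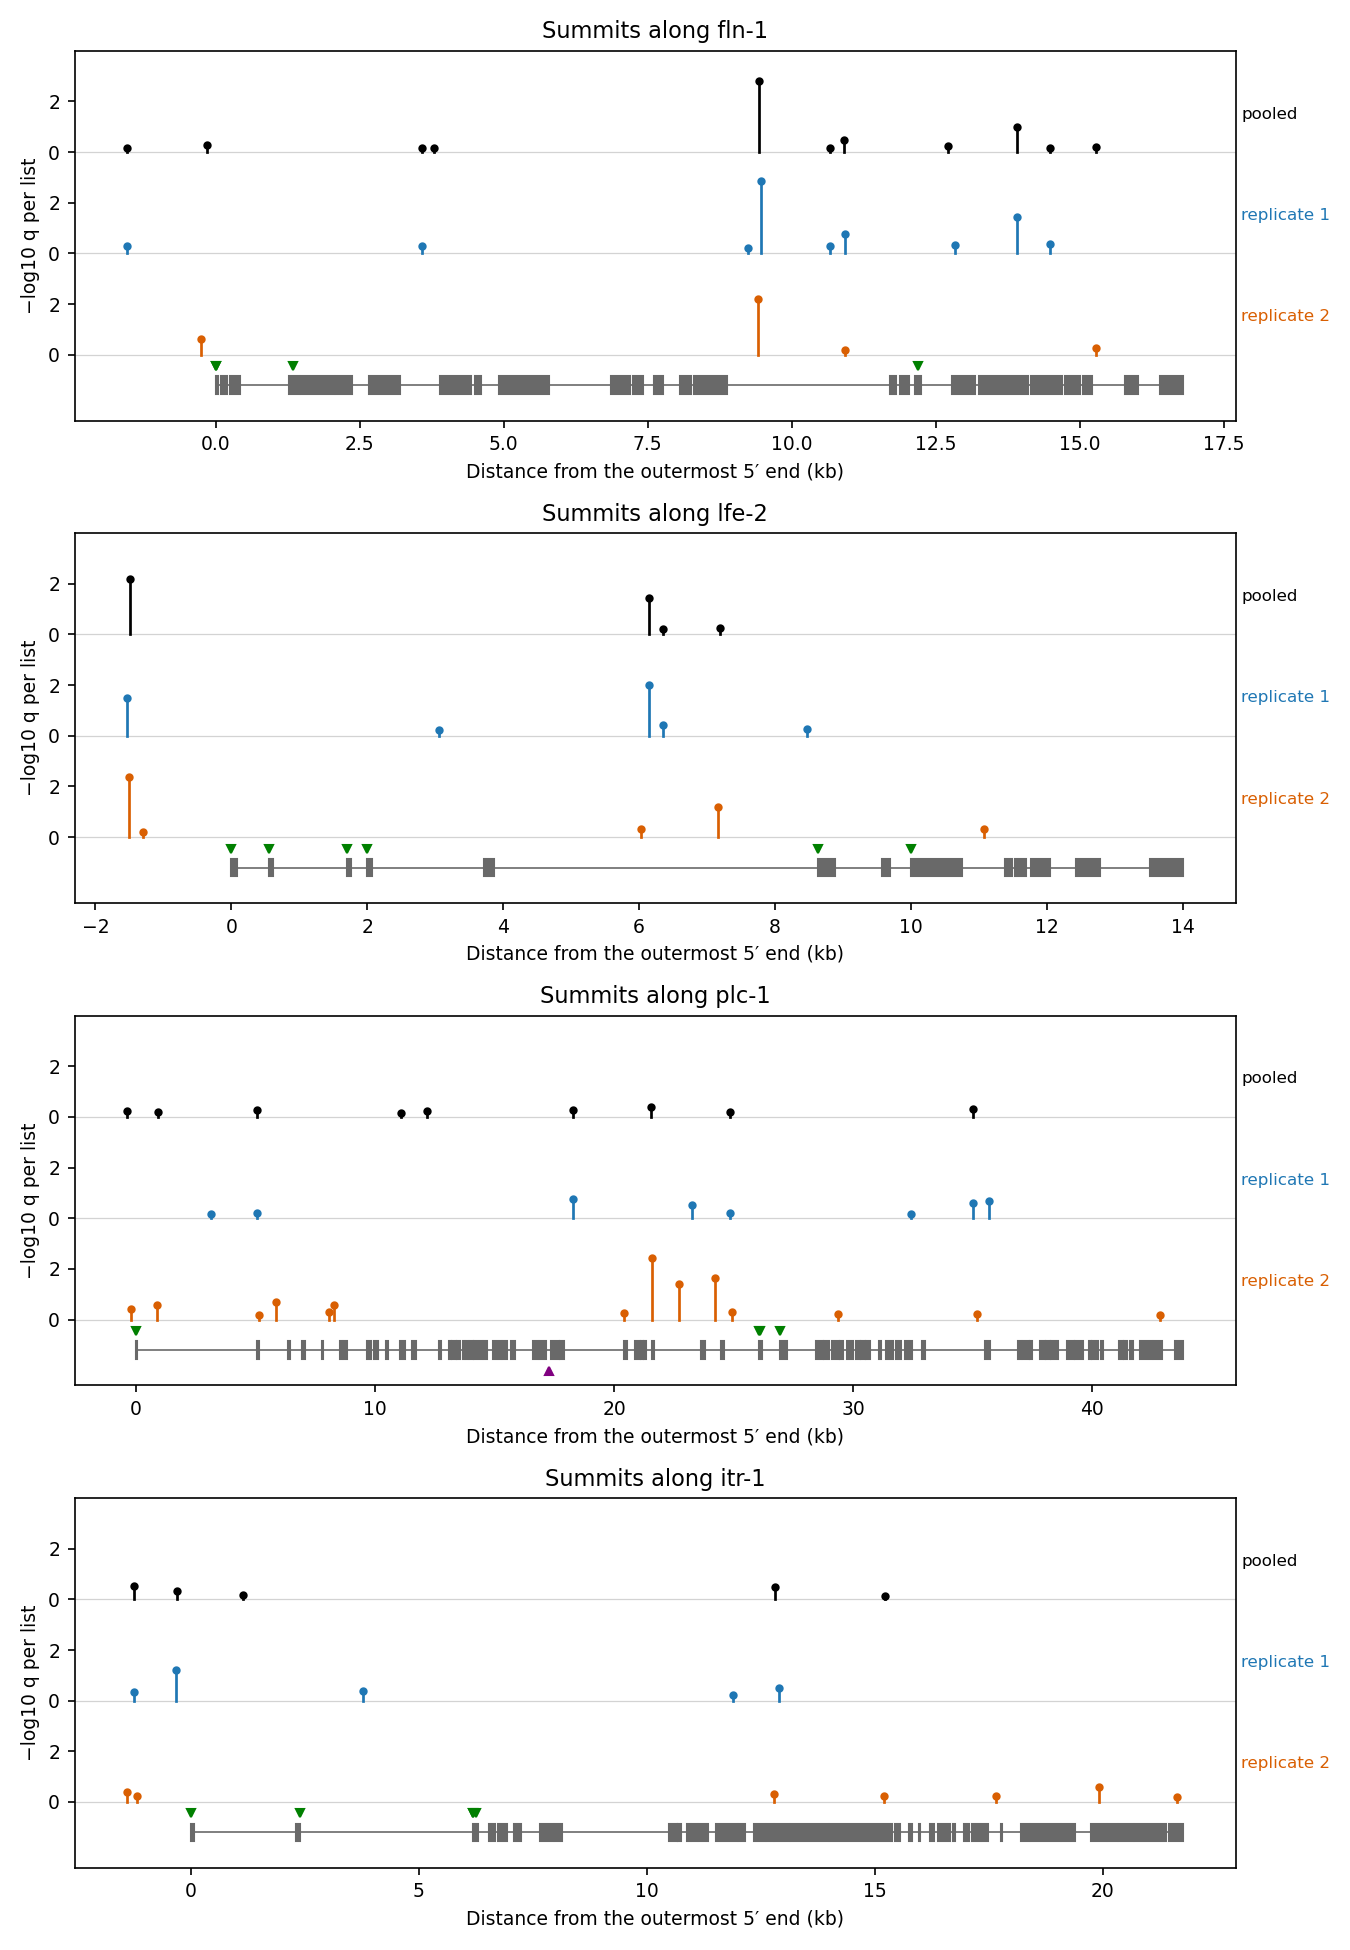
Summits along fln-1, lfe-2, plc-1 and itr-1 by distance from the outermost 5′ end (kb), with −log10 of the authors' q-value on the vertical axis, in pooled, replicate 1 and replicate 2 tracks, with grey exons and green 5′ ends. The fln-1 summit 9428 bp from the outermost 5′ end has the highest pooled value in the 4 genes, 2.82.

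In promoters, ajm-1 alone of the 10 genes held a peak of the optimal set, while weak candidates were found in most of them. An optimal summit lay in the promoter windows of 1 of the 10 genes, ajm-1, against 5.93% of all protein-coding genes. The count was 0 of 10 with windows from 500 bp upstream (4.70% of all genes) and with the outermost 5′ end only (5.45%), a setting chosen after seeing the data. Relaxed pooled summits lay in the windows of 7 of 10, against 41.2% of all genes. In replicate 1 they lay in 5 of 10, against 40.0%, and in replicate 2 in 6 of 10, against 41.2%. Summits of both replicates within 100 bp of each other occurred in 2 of 10 (ajm-1 and ipp-5), against 13.8%. At a q-value of 0.01 or less, ajm-1 was the 1 gene of 10 with a promoter summit, against 8.91% of all genes pooled. In replicate 1 it was again the 1 gene of 10, against 9.21%, and in replicate 2 the same gene, against 8.02%. With 10 genes, a count 1 higher or lower moves the share more than most of these differences, and no test was made on so small a chosen list.

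In introns outside the windows, an optimal summit was found in 2 of 10 genes, ajm-1 and fln-1, against 1.09% of the 18587 genes with such introns. Taking the highest 1662 peaks of replicate 1 or of replicate 2 alone, it was 1 of 10, ajm-1, against 1.15% in replicate 1 and 1.23% in replicate 2, and in the upper 831 optimal peaks it was 0 of 10, against 0.516%. Pooled relaxed summits were found in 6 of 10, against 23.5% of those genes, and summits of both replicates within 100 bp in 3 of 10 (ajm-1, plc-1 and fln-1), against 5.12%. The plc-1 pair was near the bottom of both lists. It was at 10833580 in replicate 1 (rank 25005, −log10 q 0.225) and at 10833481 in replicate 2 (rank 29395, −log10 q 0.185). At a q-value of 0.01 or less, replicate 1 had intron summits in 3 of 10 genes, ajm-1, fln-1 and lfe-2, against 2.37%. Replicate 2 had them in 3 of 10, ajm-1, plc-1 and fln-1, against 1.96%. Apart from the 0 of 10 in the upper 831 optimal peaks, these shares are above those of all genes with such introns. Of the 6 genes with a pooled intron summit, 5 had over 5 kb of intron outside the windows, and fkh-6 had 2389 bp. Over the genome, pooled relaxed intron summits occurred in 92.1% of genes with over 10 kb of such intron, the class of ajm-1, plc-1 and itr-1. The share was 75.5% with over 5 and up to 10 kb, where fln-1 and lfe-2 had one and mel-11 had none. With over 1 and up to 5 kb it was 39.4%, and of the members there fkh-6 alone had one. The part of length in the shares of the 10 genes was not tested.

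**Figure D4:**
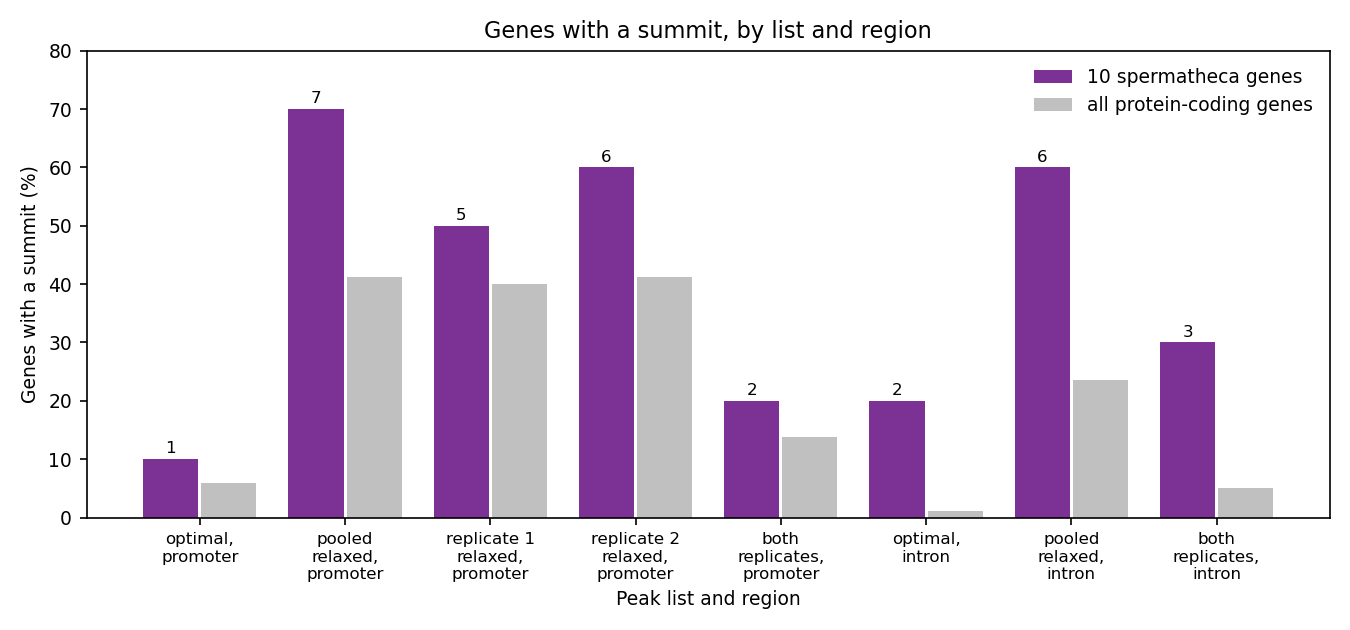
Percent of the 10 genes (purple, with the number of genes above each bar) beside percent of protein-coding genes (grey) that hold a summit under each rule. Grey bars cover all protein-coding genes for promoter windows, and for introns only those with introns outside the windows. An optimal intron summit was found in 2 of the 10 genes and 1.09% of the 18587 genes with such introns. An optimal promoter summit was found in 1 of the 10 and 5.93% of all genes.

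Number of 5′ ends and intron length moved with these counts over the genome. Genes with 7 or more annotated 5′ ends, the class of ajm-1, had an optimal promoter summit in 15.3% of 163 cases. The share was 12.3% of 763 genes with 4 to 6 ends, the class of plc-1, fln-1, lfe-2 and itr-1. It was 8.35% with 2 to 3 ends, as in mel-11, and 4.79% with 1 end, as in dlg-1, let-502, ipp-5 and fkh-6. Optimal intron summits occurred in 12.5% of 416 genes with over 10 kb of intron outside the windows, where ajm-1, plc-1 and itr-1 belong, and 1 of these 3 had one. They occurred in 6.16% of 941 genes with over 5 and up to 10 kb, where fln-1, lfe-2 and mel-11 belong, and 1 of these 3 had one. Their share was 1.35% with over 1 and up to 5 kb, the class of the other 4 genes, none of which had one. Set per length, pooled intron summits numbered 30 in 82.08 kb of the 10 genes, or 0.365 per kb, against 0.275 per kb over all genes. Without ajm-1 the value was 0.296 per kb. Pooled promoter summits numbered 10 in 33.35 kb, or 0.300 per kb, against 0.372 per kb over all genes, and 0.271 per kb without ajm-1.

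Most summits of these genes appeared in 1 replicate and not the other. Of the promoter summits of replicate 1, 4 of 10 had a replicate 2 summit within 100 bp (40.0%), against 26.6% over all genes. In introns the count was 7 of 25 (28.0%), against 18.4%. These summits cluster in few genes and are not independent, so no test was made. On X, where ajm-1, dlg-1, plc-1 and ipp-5 lie, 183 of 2731 genes (6.70%) had an optimal promoter summit, against 1002 of 17242 autosomal genes (5.81%).

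The NR4A element AAAGGTCA was looked for on both strands, as were its shorter forms AAGGTCA and AGGTCA, each of which contains the next. Of the 40 pooled promoter and intron summits of these genes, 0 had any of the 3 forms lying wholly within 50 bp. Over all 30000 pooled summits the shares were 0.383%, 1.06% and 3.14%. In the promoter windows, AAAGGTCA occurred in 2 of 10 genes, lfe-2 and itr-1, against 922 of 19973 genes (4.62%). AAGGTCA occurred in ajm-1, lfe-2 and itr-1, 3 of 10 against 11.4%, and AGGTCA in those and ipp-5, 4 of 10 against 30.5%. With a single window at the outermost 5′ end the count for AAAGGTCA was 1 of 10, itr-1, against 3.88%. The printed itr-1 element, at chrIV:7674823-7674830, is 347 bp upstream of the outermost 5′ end, with distances of elements taken from their middle. It lies 51 bp from the pooled summit and 20 bp from the replicate 1 summit, and 827 bp from the nearest replicate 2 summit. The lfe-2 element was 2820 bp from the nearest pooled summit, and the AAGGTCA of ajm-1 was 275 bp from one. A match of letters is a description and not a measured site.

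Wider lists of the same processes gave the following optimal promoter summits, against the 5.93% of all protein-coding genes. A list of 20 further genes, drawn up for calcium and IP3 signalling, also took in genes of cAMP and growth factor signalling and innexins. Of these 20 genes, 5 had an optimal promoter summit (25.0%). These were the cAMP phosphodiesterase gene pde-4 with a pooled signal of 108.6 (rank 411), the protein kinase A catalytic subunit gene kin-1 with 76.8, the G protein alpha subunit gene gsa-1 with 75.6, the calreticulin gene crt-1 with 67.0 and the innexin gene inx-13 with 63.9. The gsa-1 summit of 75.6 had no summit of either replicate within 100 bp, and a second gsa-1 summit of 73.1 ranked 942 in replicate 1 and 1653 in replicate 2. The crt-1 summit ranked 1051 in replicate 1 and 7811 in replicate 2. kin-1 also had an optimal intron summit with a signal of 103.6, and the CaM kinase II gene unc-43 had one with 64.2. Of 19 actomyosin genes, 2 had a promoter summit (10.5%), the myotonic dystrophy-related kinase gene mrck-1 with 126.2 (rank 287) and the WAVE gene wve-1 with 103.8 (rank 453). The wve-1 summit also lies in the window of R06C1.4. Of 18 further junction genes none had an optimal promoter summit, and the adhesion gene sax-7 had intron summits of 59.8 and 55.8. The sax-7 summit of 55.8 had no replicate 2 summit within 100 bp. Of 19 matrix adhesion genes, 1 had an optimal promoter summit (5.26%), the parvin gene pat-6 with 55.0 (rank 1528). That summit ranked 3801 in replicate 1 and 4919 in replicate 2, so it was among the highest 1662 in neither. Of 17 regulators of the somatic gonad, 1 had an optimal promoter summit (5.88%), jun-1 with 117.0. Both replicates had promoter summits within 100 bp in 7 of the 20 genes of the mixed calcium list (35.0%) and 4 of 19 actomyosin genes (21.1%). They did so in 6 of 18 junction genes (33.3%), 3 of 19 adhesion genes (15.8%) and 1 of 17 gonad regulators (5.88%). The share over all genes was 13.8%. The lists were chosen with earlier results of these data known and differ in gene length, so the shares are descriptions with no test. They were also not matched for number of annotated 5′ ends. Over all genes the optimal promoter share was 4.79% with 1 end and 15.3% with 7 or more.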

How the data were processed

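ChIP-seq peak lists of 2 biological replicates of L2 larvae, which form 1 group per the labels, were analysed with the list and the optimal set of the pooled data. Per the file headers, the authors made a relaxed list for each replicate and for both together, and derived the optimal set by the irreproducible discovery rate. No source used here names the aligner, the peak caller, that rate's threshold or the scaling of values. Per peak, each deposited list gives a signal, −log10 of its q-value and the offset of the summit. The signal is the authors' own and was used only to describe and rank peaks within a list. Depth is unknown, so no interval is given. Lists on ce11 were used and those on ce10 were not. All peak ends lay within the WBcel235 chromosome lengths.

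Genes were matched by Ensembl symbol (release 115), and all 10 were found. A summit from 1000 bp upstream to 200 bp downstream of a coding transcript's 5′ end was a promoter summit. Other summits in introns were intron summits. Replicate summits within 100 bp were called shared, and motifs lying wholly within 50 bp of summits were looked for. Named items were the members, every other gene whose window holds a member's summit, and wider-list genes with an optimal summit. The members and lists were chosen with earlier results of these data known. The tRNA copies, 5′-end and intron-length classes and GAGAGAGA were looked at after peaks had been seen. No test was made, since there is 1 group. The assignment code was run on simulated summits, and 200 of 200 planted in promoters and 200 of 200 in introns were recovered. This checks the code only, not whether a peak belongs to a gene. Alternatives were other windows, 5′ ends, distances and q-values, the upper part of the optimal set and each replicate left out. Python 3.11.15, pandas 2.3.3, numpy 2.4.6 and matplotlib 3.10.9 were used.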

Additional observations from a re-analysis of the deposited data

How the results depend on the processing

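Of 37 recomputed values 22 stayed close to the main one and 15 moved. With windows from 500 bp upstream, 0 of the 10 genes had an optimal promoter summit (4.70% of all genes) and 1 had shared replicate summits (10.4%). From 2000 bp upstream, 8 had a replicate 1 summit (53.7% of all genes) and 5 had shared replicate summits (19.0%). With the outermost 5′ end only, chosen after seeing the data, 0 had an optimal promoter summit (5.45% of all genes). Under that setting 1, ipp-5, had shared replicate summits (12.4%). At a q-value of 0.01 or less, 1 gene, ajm-1, had a promoter summit in the pooled list (8.91% of all genes). The same 1 gene had one in replicate 1 (9.21%), in replicate 2 (8.02%) and in both (4.66%). In the upper 831 optimal peaks 0 genes had an intron summit (0.516% of genes with introns outside the windows). Without replicate 1 and without replicate 2, taking the highest 1662 peaks of the other, 1 gene had an optimal intron summit each time, ajm-1, and fln-1 had none. The genome share under that rule was 1.23% without replicate 1 and 1.15% without replicate 2. Leaving out either replicate left 1 gene with an optimal promoter summit, ajm-1. The share of all genes was 5.95% without replicate 1 and 5.66% without replicate 2. A relaxed intron summit was found in 8 genes without replicate 1 (genome share 25.5%) and in 7 without replicate 2 (22.7%). Over the whole gene body outside the windows all 10 genes had a pooled relaxed summit (39.2% of all genes). Within 100 bp of the summit in place of 50 bp, 1 of the 40 summits, in itr-1, held AAAGGTCA. No paired analysis was possible because there is 1 group. Depth, input and multiply mapped reads could not be examined.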
